A study of Sus scrofa with 12 samples.

Results

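The NOTCH pathway was described here by 10 genes: the receptors NOTCH1, NOTCH2, NOTCH3 and NOTCH4, the ligands DLL1, DLL4, JAG1 and JAG2, and the target genes HES1 and HEY1. They were sought by Ensembl pig gene symbol among the 19681 genes of the expression tables, of which 13998 have a symbol, and 8 of the 10 were found. NOTCH1 and JAG2 were not analysed here. RNA was sequenced from 3 biological replicates (A, B and C) in each of 4 groups. In IEC2, IEC4 and IEC12 porcine iPS cells had been induced towards endothelium for 2, 4 and 12 days. AOC is a porcine endothelial cell line that did not pass through the induction. All 3 IEC groups received CHIR99021, an inhibitor of GSK3 that activates WNT signalling, over the first 2 days. IEC4 and IEC12 then received BMP4, FGF2 and VEGF up to day 4, and IEC12 went on in endothelial growth medium (EGM-2) with added VEGF up to day 12. No sort is named for the IEC libraries, so each may hold several cell types, and AOC is a single line. Values are FPKM (fragments counted on a gene, divided by transcript length and by the depth of the library), which allow levels of genes of different length to be set side by side.

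NOTCH receptors are membrane proteins that are activated by ligands on a neighbouring cell. Ligand binding lets an ADAM protease and then γ-secretase cut the receptor, and the freed intracellular part enters the nucleus, joins the DNA-binding protein RBPJ and a Mastermind co-activator, and switches on HES and HEY genes, which encode transcriptional repressors. In blood vessels the pathway is known for arterial identity and for the choice between tip and stalk cells of a sprout, with DLL4 as the ligand of tip and arterial endothelium, JAG1 acting with it, and NOTCH1 and NOTCH4 as endothelial receptors. NOTCH3 is best known from vascular smooth muscle and pericytes.

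The members were low to moderately expressed genes. In every library NOTCH2 lay between the 66.2 and the 78.2 percentile of all genes, whereas HEY1 ranged from 54.5 in AOC to 82.0 in IEC12. The FPKM values were exact multiples of 1 read's worth, so the read numbers behind them could be recovered, and the genes of a library held 17530546 reads (IEC12 replicate A) to 31830063 reads (IEC4 replicate A). The group names were checked against cell type markers. The 11 endothelial genes found of 15 listed summed to between 349.4 and 470 FPKM in AOC. In the induced cells the same sum lay between 3.27 and 5.70 at day 2, 1.74 and 2.16 at day 4, and 0.415 and 0.726 at day 12. CDH5, the cadherin of endothelial junctions, was listed at 0 in all 9 IEC libraries, and PECAM1 (CD31) reached at most 0.554 FPKM there against 91.7 to 131.4 in AOC. KDR, a VEGF receptor that endothelial progenitors also carry, was at 2.42 to 3.99 FPKM in IEC2 against 1.31 to 1.46 in AOC and at most 0.302 in IEC4 and IEC12. The IEC groups are named by the day of induction towards endothelium, and IEC2 and IEC4 are early stages. At day 12 CDH5 and PECAM1 were also at or near 0, so the data go against reading IEC12 as endothelial cells. The groups are called by their names alone below. Of 6 genes of pluripotent cells listed, 2 were found, LIN28A and NANOG. LIN28A was at 0 in IEC2, the stage nearest to the iPS cells, at 3.01 to 5.86 FPKM in IEC4 and at 0 to 0.647 in IEC12. NANOG was at most 0.155 FPKM in IEC2, at 0.236 to 0.530 in IEC4 and at 0.248 to 1.075 in IEC12. In IEC4 the 4 epithelial genes found of 5 listed summed to 316.5, 462.2 and 821.7 FPKM in replicates A, B and C, against at most 21.2 in any other library, and without KRT8, which made up most of the sum, to 16.1, 27.3 and 73.9 against at most 1.16. Their part in the values of IEC4 was not tested, and in bulk RNA fewer cells of a type and less RNA per cell cannot be told apart.

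NOTCH2 was the most abundant of the receptors in all 12 libraries and took 69.8% to 98.7% of the summed FPKM of the 3 receptors found. The gene (ENSSSCG00000006709; chr4:100951522-101152348, RefSeq, Sscrofa11.1) was measured at 2.85, 4.14 and 4.41 FPKM in replicates A, B and C of IEC2, at 5.13, 6.88 and 6.78 in IEC4, at 7.94, 5.72 and 4.24 in IEC12 and at 2.52, 2.81 and 3.38 in AOC. Each value rests on 690 to 2436 reads. The lowest IEC4 library stood above the highest IEC2 library, IEC12 overlapped both, and all AOC libraries lay below all those of IEC4 and IEC12. By mean and SD (n = 3) the order was IEC4 (6.26 ± 0.983), IEC12 (5.97 ± 1.87), IEC2 (3.80 ± 0.836) and AOC (2.90 ± 0.433), and no neighbours in this order differed beyond the threshold. On the log2(FPKM + 1) scale NOTCH2 was lower in AOC than in IEC4 by a log2 fold change of -0.89 (SE 0.22, adjusted p 0.00316) and than in IEC12 by -0.81 (SE 0.22, adjusted p 0.007). The difference from IEC4 did not pass when the libraries were scaled by median-of-ratios (-0.46, adjusted p 0.101). The difference of IEC4 from IEC2 was 0.60 (95% interval 0.08 to 1.13, adjusted p 0.0707) and did not pass the threshold of 0.05, although it passed in a fit of these 2 groups alone (adjusted p 0.0488).

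NOTCH4, the receptor known from endothelium, was lower in IEC12 than in IEC2 and did not differ between AOC and any IEC group beyond the threshold. The gene (ENSSSCG00000001440; chr7:24231293-24256281) was measured at 1.23, 1.04 and 1.63 FPKM in IEC2, at 0.716, 1.5 and 1.17 in IEC4, at 0.104, 0.493 and 0.796 in IEC12 and at 0.594, 1.11 and 0.295 in AOC. All IEC12 libraries lay below all IEC2 libraries, and every other pair of groups overlapped. The means were 1.30 ± 0.302 in IEC2, 1.13 ± 0.394 in IEC4, 0.665 ± 0.41 in AOC and 0.465 ± 0.347 in IEC12 (SD, n = 3). NOTCH4 fell between IEC2 and IEC12, by a log2 fold change of -0.67 (SE 0.23, adjusted p 0.0379). This call did not hold without the filter on low values (adjusted p 0.0652), nor with 1 of the libraries IEC12 A, IEC12 B, IEC2 A, IEC2 B or IEC2 C left out (adjusted p 0.0557 to 0.125). AOC against IEC2 gave -0.49 (95% interval -0.99 to 0.02, adjusted p 0.0845), against IEC4 -0.37 (95% interval -0.87 to 0.14, adjusted p 0.176) and against IEC12 0.18 (95% interval -0.32 to 0.69, adjusted p 0.518). The lowest value, in IEC12 replicate A, rests on 11 reads in the shallowest library, and without that library the difference was -0.48.

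NOTCH3 did not reach 1 FPKM in any library, and its highest values were in IEC4. The gene (ENSSSCG00000025176; chr2:62364507-62402348) was listed at 0.00655, 0.0983 and 0.0272 FPKM in IEC2, at 0.260, 0.172 and 0.493 in IEC4, at 0, 0.0307 and 0.0712 in IEC12 and at 0.0108, 0 and 0.00349 in AOC. These values stand for 44 reads in the IEC2 libraries together, 316 in IEC4, 34 in IEC12 and 4 in AOC. All 3 IEC4 libraries lay above the other 9, and the remaining groups overlapped. NOTCH3 did not pass the filter on low values. In a fit without that filter it was higher in IEC4 than in IEC2 by a log2 fold change of 0.32 (adjusted p 0.0315), lower in IEC12 than in IEC4 by -0.33 (adjusted p 0.0242), and lower in AOC than in IEC4 by -0.37 (adjusted p 0.00216), on a scale that understates changes of genes this low. The 9 genes of the smooth muscle and pericyte list, all found, summed to 30.9, 11.5 and 12.1 FPKM in replicates A, B and C of IEC4, against 1.41 to 1.84 in IEC2, 3.99 to 5.08 in IEC12 and 4.73 to 12.9 in AOC. RGS5, a pericyte gene, gave 24.6, 7.60 and 3.93 of the IEC4 sums, and without it IEC4 stood at 6.29, 3.89 and 8.14, within the range of AOC (4.73 to 12.9) but for replicate B. The part of such cells in the NOTCH3 values was not tested.

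**Figure D1:**
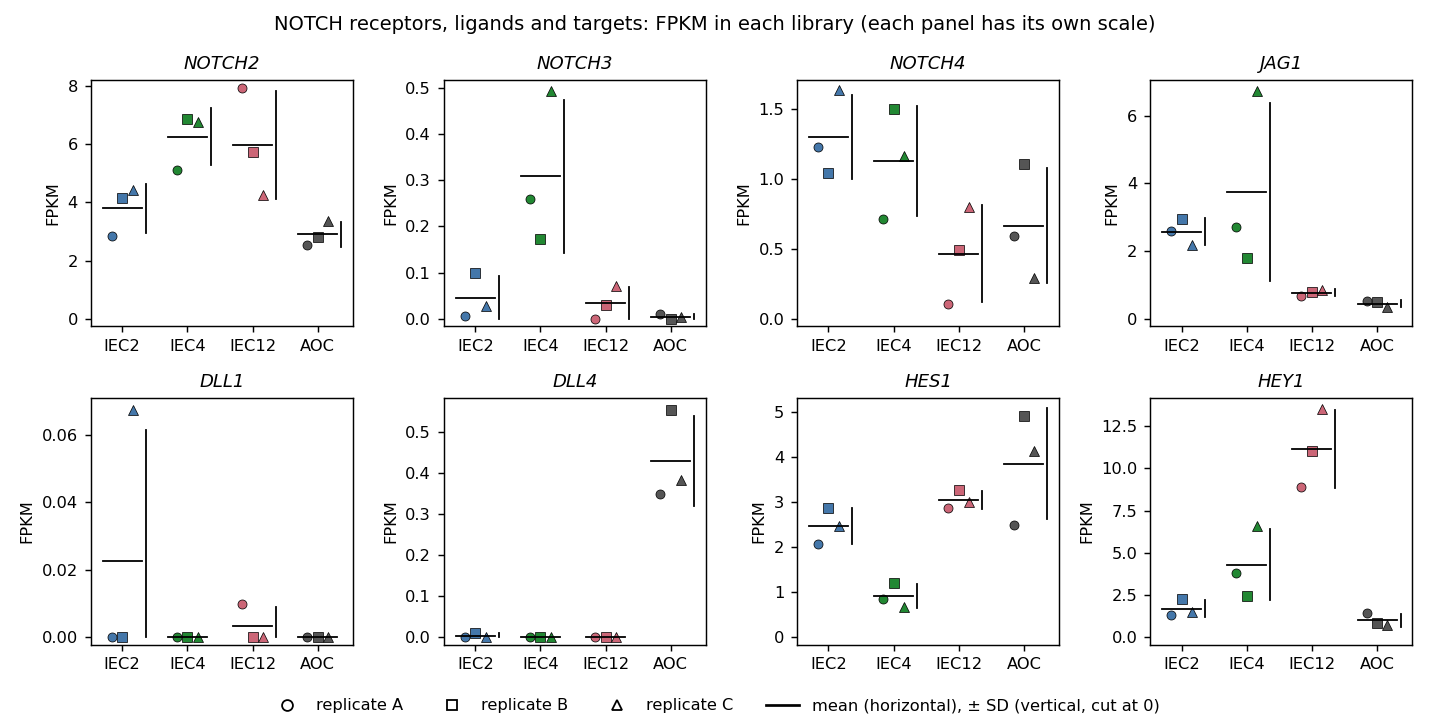
FPKM (vertical axis, linear, a separate scale in each panel) of the 8 NOTCH genes found, by group (horizontal axis); circles, squares and triangles are replicates A, B and C, horizontal lines are means and vertical lines are ± SD (n = 3). HEY1 is highest in IEC12 (8.89 to 13.5), HES1 lowest in IEC4 (0.68 to 1.21), and DLL4 above 0.1 only in the AOC libraries (0.35 to 0.555).

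Among the ligands JAG1 was the one detected in every library. The gene (ENSSSCG00000007067; chr17:19591248-19629659) was measured at 2.58, 2.96 and 2.17 FPKM in IEC2, at 2.70, 1.78 and 6.74 in IEC4, at 0.670, 0.792 and 0.855 in IEC12 and at 0.532, 0.489 and 0.336 in AOC. All libraries of IEC12 and AOC lay below all those of IEC2 and IEC4, and AOC lay below IEC12 without overlap. IEC4 replicate C stood apart, with 1697 reads for JAG1 against 824 and 513 in replicates A and B, and this library also had the highest epithelial marker sum. The means were 3.74 ± 2.64 in IEC4, 2.57 ± 0.393 in IEC2, 0.773 ± 0.094 in IEC12 and 0.452 ± 0.103 in AOC (SD, n = 3). JAG1 fell between IEC4 and IEC12, by a log2 fold change of -1.28 (SE 0.32, adjusted p 0.0109), and between IEC2 and IEC12, by -1.01 (SE 0.32, adjusted p 0.0307). The second call did not hold without the filter on low values (adjusted p 0.074), nor with any 1 library of IEC2 or IEC12 left out (adjusted p 0.0528 to 0.0916). AOC was lower than IEC2 by -1.30 (SE 0.29, adjusted p 0.00207) and than IEC4 by -1.57 (SE 0.29, adjusted p 0.000514). Between AOC and IEC12 the difference was -0.29 (95% interval -0.93 to 0.35, adjusted p 0.422), which did not pass. IEC4 and IEC2 differed by 0.28 (95% interval -0.45 to 1.0, adjusted p 0.532), and without IEC4 replicate C the sign turned (-0.15).

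DLL4 was found in AOC and hardly elsewhere. The gene (ENSSSCG00000004755; chr1:130376720-130386411) was listed at 0.350, 0.555 and 0.384 FPKM in AOC, at 0.0109 in IEC2 replicate B, and at 0 in the other 8 IEC libraries. The AOC values stand for 53, 86 and 60 reads and the IEC2 value for 2 reads. Against IEC4 and IEC12, where no read was counted, the mean of AOC was at least 82.6-fold and at least 69.5-fold higher, taking a floor of 3 reads over the 3 libraries of a group. Against IEC2 the ratio of reads per depth was 114 (95% exact interval 31.2 to 949, which covers counting error only). The gene did not pass the filter on low values, and in a fit without it DLL4 was higher in AOC than in IEC2, IEC4 and IEC12 (adjusted p 8.02e-06, 8.27e-06 and 9.52e-06). The exact two-sided permutation test over the libraries gave p 0.1 in each case, the smallest that 3 libraries against 3 allow. Within AOC, DLL4 and JAG1 were at like levels, with JAG1 making up 46.7% to 60.3% of the summed FPKM of the 3 ligands found, against 97.0% to 100% in the IEC libraries.

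DLL1, a ligand known from the somites and from arterial endothelium, was not detectable in most libraries at this depth. The gene (ENSSSCG00000027726; chr1:198815-211346) was listed at 0.0674 FPKM in IEC2 replicate C and 0.0098 in IEC12 replicate A, and at 0 in the other 10 libraries. These values stand in the ratio of 11 reads to 1, and with 2 values above 0 a common factor in both cannot be seen. No comparison of DLL1 passed in the fit without a filter.

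The target HEY1 showed the largest differences between groups of the members tested. The gene (ENSSSCG00000006159; chr4:56859640-56863807) was measured at 1.30, 2.27 and 1.5 FPKM in IEC2, at 3.81, 2.48 and 6.58 in IEC4, at 8.89, 11.1 and 13.5 in IEC12 and at 1.46, 0.833 and 0.707 in AOC. The IEC stages did not overlap and lay in the order IEC2, IEC4, IEC12, and AOC overlapped with IEC2 and lay below the others. The means were 11.1 ± 2.31 in IEC12, 4.29 ± 2.10 in IEC4, 1.69 ± 0.508 in IEC2 and 0.999 ± 0.402 in AOC (SD, n = 3). HEY1 rose from IEC2 to IEC4 by a log2 fold change of 0.92 (SE 0.29, adjusted p 0.0328), from IEC4 to IEC12 by 1.26 (SE 0.29, adjusted p 0.00714) and from IEC2 to IEC12 by 2.17 (SE 0.29, adjusted p 0.00032). In FPKM the mean of IEC12 was 6.6 times that of IEC2. The step from IEC2 to IEC4 was not called without the filter (adjusted p 0.0652), nor without IEC4 A, IEC4 C, IEC2 A or IEC2 C (adjusted p 0.0712 to 0.101), and without IEC4 C the log2 fold change was 0.62. AOC was lower than IEC4 by -1.35 (SE 0.28, adjusted p 0.00106) and than IEC12 by -2.60 (SE 0.28, adjusted p 7.69e-06), and the difference of AOC from IEC2, -0.43 (95% interval -1.04 to 0.18, adjusted p 0.196), did not pass.

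HES1, the other target, moved in another order and was lowest at the middle stage. The gene (ENSSSCG00000031356; chr13:131135970-131137865) was measured at 2.07, 2.88 and 2.48 FPKM in IEC2, at 0.850, 1.21 and 0.680 in IEC4, at 2.87, 3.27 and 3.02 in IEC12 and at 2.51, 4.92 and 4.15 in AOC. All 3 IEC4 libraries lay below the other 9, which overlapped among IEC2, IEC12 and AOC. HES1 fell from IEC2 to IEC4, by a log2 fold change of -0.86 (SE 0.18, adjusted p 0.00437), and rose from IEC4 to IEC12, by 1.09 (SE 0.18, adjusted p 0.00121). It was also higher in AOC than in IEC4, by 1.32 (SE 0.20, adjusted p 0.000115). The means of the other groups were 3.86 ± 1.23 in AOC, 3.05 ± 0.20 in IEC12 and 2.48 ± 0.403 in IEC2 (SD, n = 3), and neighbours in that order did not differ beyond the threshold (AOC against IEC12 0.23, 95% interval -0.21 to 0.67; IEC12 against IEC2 0.23, 95% interval -0.17 to 0.62). AOC against IEC2 gave 0.46 (adjusted p 0.0659), which passed under median-of-ratios scaling (0.66, adjusted p 0.0106). The 8 genes of the neural list found of 10 summed to 16.2 to 17.2 FPKM in IEC4, 4.87 to 7.36 in IEC2, 9.93 to 10.99 in IEC12 and 14.5 to 17.8 in AOC. MAP2 made up nearly all of the IEC4 sum, and without it the sums were 0.928 to 1.75 in IEC4, 1.63 to 3.41 in IEC2, 1.22 to 1.88 in IEC12 and 14.5 to 17.7 in AOC. The part of such cells in HES1 was not tested.

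Because both targets are given per length, their ratio can be read within each library. HEY1 was below HES1 in all libraries of IEC2 (ratio 0.606 to 0.788) and AOC (0.169 to 0.582) and above it in all libraries of IEC4 (2.05 to 9.69) and IEC12 (3.10 to 4.47). In IEC4 the high ratio went with low HES1 as well as with raised HEY1, and in IEC12 with the highest HEY1 of all groups beside HES1 that did not differ from IEC2 beyond the threshold. The ratio of JAG1 to NOTCH2, by contrast, was 0.492 to 0.907 in IEC2, 0.259 to 0.995 in IEC4, 0.0844 to 0.202 in IEC12 and 0.0996 to 0.211 in AOC, so IEC12 and AOC were alike in having little JAG1 per NOTCH2.

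**Figure D2:**
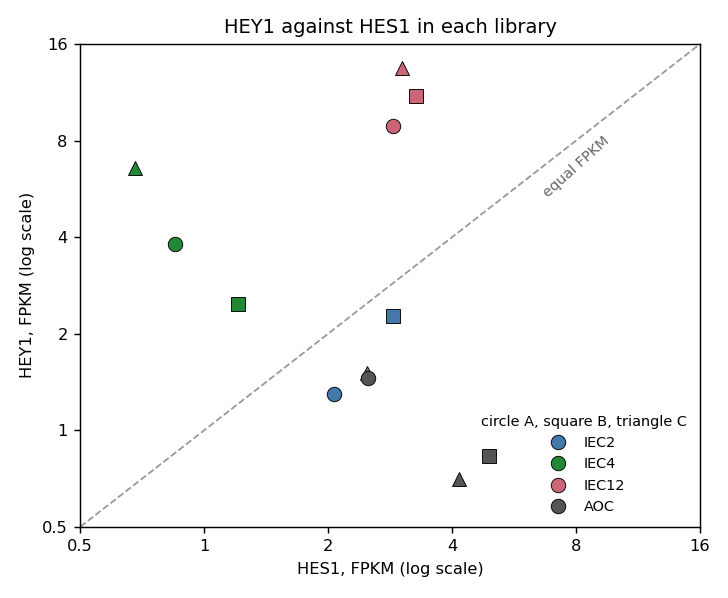
FPKM of HEY1 (vertical axis, log scale) against FPKM of HES1 (horizontal axis, log scale) in each of the 12 libraries, coloured by group, with circles, squares and triangles for replicates A, B and C and a dashed line at equal FPKM. The IEC4 and IEC12 libraries lie above the line and the IEC2 and AOC libraries below it, where the points of IEC2 replicate C and AOC replicate A nearly coincide.

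Of the 8 genes found, 5 passed the filter of at least 1 FPKM in at least 3 libraries and were tested with all other genes, and NOTCH3, DLL1 and DLL4 did not pass it. From IEC2 to IEC4, 1 of the 5 rose (HEY1) and 1 fell (HES1), where 37.3% of all 10542 genes tested were called, 24.8% higher and 12.5% lower. From IEC4 to IEC12, 2 rose (HES1 and HEY1) and 1 fell (JAG1), where 44.2% of all genes were called, 17.3% higher and 26.9% lower. Between IEC2 and IEC12, HEY1 rose and NOTCH4 and JAG1 fell, where 43.6% of all genes were called, 24.2% higher and 19.3% lower. AOC was lower than IEC2 in 1 of the 5 (JAG1), where 63.8% of all 11053 genes tested were called, 26.7% higher and 37.1% lower. Against IEC4, AOC was higher in HES1 and lower in NOTCH2, JAG1 and HEY1, where 69.1% of genes were called, 22.1% higher and 47.0% lower. Against IEC12, AOC was lower in NOTCH2 and HEY1 alone, where 58.5% of genes were called, 22.4% higher and 36.2% lower. Between 1 and 4 of 5 genes called is too few to be set apart from backgrounds this large. On the log2(FPKM + 1) scale no member passed the stricter limits of the study, which need an absolute log2 fold change above 3 and p-values under 0.001. On that scale 1.18%, 0.939%, 1.22%, 5.47%, 5.17% and 4.41% of genes passed them in these 6 comparisons in the order given. The pseudocount decides this for HEY1 in AOC against IEC12, which at a pseudocount of 0.1 lay beyond these limits (-3.39, adjusted p 1.13e-05). The count from IEC2 to IEC4 was 1 without IEC4 A, IEC4 C, IEC2 A or IEC2 C, that between IEC2 and IEC12 was 1 without IEC12 A, IEC12 B or any 1 library of IEC2, and that in AOC against IEC2 was 2 without AOC A or AOC B. The comparisons share groups, so their results are not independent of each other.

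The whole distribution of genes was shifted in several comparisons. The median log2 fold change of all genes tested was 0.20 from IEC2 to IEC4, -0.15 from IEC4 to IEC12, 0.03 from IEC2 to IEC12, and -0.20, -0.45 and -0.21 in AOC against IEC2, IEC4 and IEC12. When median-of-ratios scaling removed this shift, HES1 from IEC2 to IEC4 was at -0.99, HEY1 over the same step at 0.73, JAG1 from IEC4 to IEC12 at -1.12, HES1 at 1.21 and HEY1 at 1.44, and each of these calls held.

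**Figure D3:**
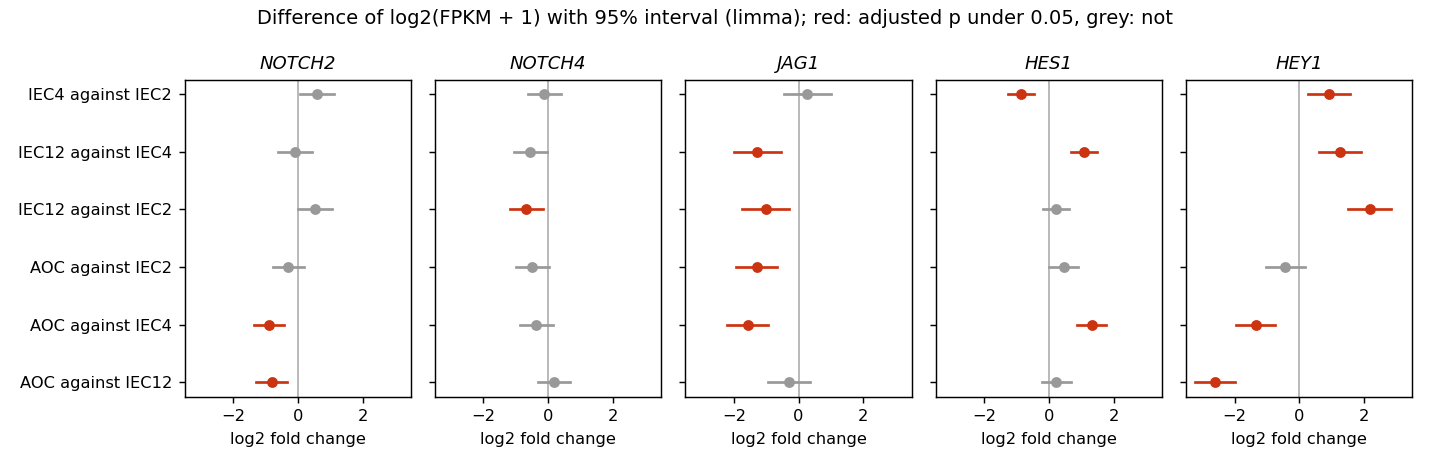
Difference of log2(FPKM + 1) between groups (horizontal axis, log2 fold change) for the 5 NOTCH genes tested, with 95% intervals from limma, for the 6 comparisons (vertical axis); red marks an adjusted p under 0.05 and grey one that did not pass. HEY1 in AOC against IEC12 is the farthest from 0, at -2.60.

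The other genes of the pathway were taken from a list of 55, of which 49 were found and 37 (IEC libraries) or 38 (all libraries) were tested. From IEC2 to IEC4, 13 of 37 rose and 4 fell, beside 24.8% and 12.5% of all genes. From IEC4 to IEC12, 5 rose and 14 fell, beside 17.3% and 26.9%, and between IEC2 and IEC12, 14 rose and 5 fell, beside 24.2% and 19.3%. Of 38 genes, 11 were higher and 17 lower in AOC than in IEC2, beside 26.7% and 37.1% of all genes. Against IEC4, 8 were higher and 21 lower, beside 22.1% and 47.0%, and against IEC12, 9 were higher and 15 lower, beside 22.4% and 36.2%. The medians of the list were 0.49, 0.11 and 0.06 for the IEC comparisons in that order and -0.20, -0.47 and -0.36 for AOC against IEC2, IEC4 and IEC12, beside the medians of all genes given above. CREBBP, FURIN and NEURL1 passed the filter among the IEC libraries through IEC4 alone, and with AOC included HES2 did so through AOC alone and CREBBP and FURIN through IEC4 alone, so their differences from the other groups were fixed by the filter. Without them, an alternative chosen after seeing the data, 10 of 34 rose and 4 fell from IEC2 to IEC4, and 5 rose and 11 fell from IEC4 to IEC12. For AOC, 10 of 35 were higher and 16 lower than in IEC2, 7 and 19 than in IEC4, and 8 and 15 than in IEC12. Genes of this kind were not taken out of the shares over all genes, so these counts have no like share to be set against. The counts over all genes tested of the list move with the scaling and with single libraries. Under median-of-ratios scaling 9 genes rose from IEC4 to IEC12 and 12 were lower in AOC than in IEC4, and at equal totals 3 rose from IEC4 to IEC12, and 9 rose and 8 fell between IEC2 and IEC12. The counts over all genes moved as well. Under median-of-ratios scaling 4821 of 10542 and 7233 of 11053 were called in these comparisons, 51.8% and 49.7% of them higher. At equal totals 4518 and 4293 of 10542 were called, 25.9% and 36.8% of them higher. From IEC2 to IEC4, 8 rose without IEC4 B and 7 without IEC4 C, and 2 fell without IEC2 A. Over all genes, 2681 of 10170, 3166 of 10149 and 2973 of 10435 were called in these fits, against 3932 of 10542 with every library. Of those called, 64.1%, 61.7% and 65.4% were higher. From IEC4 to IEC12, 7 fell without any 1 library of IEC4, 2 rose without IEC4 A and 3 without IEC12 B. Of all genes, 3388, 3235 and 3888 were called without IEC4 A, B and C and 3348 without IEC12 B, against 4660. Of those called, 41.6%, 42.3%, 44.1% and 35.5% were higher. Without a library of IEC4, 34 of the list were tested. Between IEC2 and IEC12, 9 rose without IEC12 B and 8 without IEC2 B, and 3 fell without IEC12 A or IEC2 C and 2 without IEC12 B or IEC2 B. Over all genes, 3292, 3540, 4287 and 3545 were called without IEC12 B, IEC2 B, IEC12 A and IEC2 C, against 4592. Of those called, 53.6% to 59.5% were higher. In AOC, 5 were higher than in IEC12 without AOC A or AOC B. There 5402 and 5430 of all genes were called, against 6469, and 36.1% and 35.0% of them were higher.

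The list held 9 other genes as targets, HES6 included, and their response to NOTCH was not tested. Of these, 2 passed the filter among the IEC libraries and 3 with AOC included. The third, HES2, passed through its AOC libraries alone and is given by its levels, with no test. HEY2, the sister gene of HEY1 known from arterial endothelium, was at 19.1, 17.3 and 14.5 FPKM in AOC, 1.11, 1.10 and 1.59 in IEC12, 4.14, 1.26 and 1.64 in IEC4 and 0.136, 0.190 and 0.208 in IEC2. It rose from IEC2 to IEC4 by a log2 fold change of 1.41 (SE 0.28, adjusted p 0.00371) and was higher in IEC12 than in IEC2 by 0.94 (SE 0.28, adjusted p 0.0224). The latter call was lost without any 1 of IEC12 B, IEC12 C and the IEC2 libraries (adjusted p 0.0509 to 0.0632), and without the filter (adjusted p 0.0504). HEY2 was higher in AOC than in IEC12 by 2.98 (SE 0.26, adjusted p 1.46e-06), where HEY1 was lower by 2.60. Of the 7 genes of the arterial endothelium list, all found, 2 had a mean of at least 1 FPKM in AOC, HEY2 and CXCR4 (63.5). EFNB2, NRP1 and UNC5B had means of 0.248, 0.491 and 0.140 there. Their highest means were 1.53 in IEC2, 1.22 in IEC12 and 1.24 in IEC4. GJA4 and GJA5 were at most 0.130 FPKM in any library. HES2, a further repressor of the HES family, was at 19.5, 17.4 and 12.9 FPKM in AOC and at most 0.0750 in any IEC library. HES6, a HES protein that antagonises HES1, was at 0.573, 2.54 and 1.54 FPKM in IEC2, 2.48, 5.72 and 4.98 in IEC4, 16.5, 32.1 and 25.0 in IEC12 and 17.0, 26.6 and 28.1 in AOC. HES6 thus rose with HEY1 over the induction, by 3.35 from IEC2 to IEC12 (SE 0.36, adjusted p 9.64e-05), but unlike HEY1 it did not differ between AOC and IEC12 beyond the threshold (-0.02, adjusted p 0.966). Among the HEY and HES genes found, HES6, HEY2 and HES2 therefore led in AOC, with HES1 and HEY1 below them, whereas HES6 and HEY1 led in IEC12.

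Of the 6 glycosyltransferases that modify the receptors, 5 were tested and RFNG was not. From IEC2 to IEC4, 2 of the 5 rose and none fell, beside 24.8% and 12.5% of all genes, and between IEC2 and IEC12, 3 rose and 1 fell, beside 24.2% and 19.3%. Over the step from IEC4 to IEC12, 1 rose and 2 fell, beside 17.3% and 26.9%. In AOC 2 were higher and 1 lower than in IEC2 (beside 26.7% and 37.1%). Against IEC4 the counts were 1 and 1 (beside 22.1% and 47.0%), and against IEC12 2 and 2 (beside 22.4% and 36.2%). MFNG, a Fringe glycosyltransferase that changes which ligands a NOTCH receptor responds to, was at 144.3, 143.4 and 82.9 FPKM in AOC, 2.92, 8.0 and 12.6 in IEC12, 3.40, 3.22 and 2.63 in IEC4 and 0.0560, 0 and 0.241 in IEC2. It rose from IEC2 to IEC4 by 1.89 (SE 0.38, adjusted p 0.00376), and AOC was higher than IEC12 by 3.95 (SE 0.37, adjusted p 2.76e-06). LFNG, the sister enzyme, lay between 0.0170 and 0.479 FPKM in IEC2 and between 1.69 and 3.97 in all other libraries. IEC2 was the group with the least of MFNG and of LFNG. POFUT1 and POGLUT1, which put the first sugars on the receptors, moved apart after day 4. From IEC4 to IEC12, POFUT1 fell by a log2 fold change of -1.09 (SE 0.18, adjusted p 0.00116) and POGLUT1 rose by 0.98 (SE 0.27, adjusted p 0.0151), the latter not called without IEC4 A (adjusted p 0.0565).

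Among the proteases, the 2 genes of the APH1 subunit of γ-secretase differed in pattern. APH1B was at 1.39, 1.45 and 0.769 FPKM in IEC2, 14.8, 18.5 and 10.7 in IEC4, 7.03, 8.45 and 9.09 in IEC12 and 4.63, 6.98 and 6.30 in AOC, and rose from IEC2 to IEC4 by 2.81 (SE 0.23, adjusted p 2.46e-05). APH1A was at 17.9, 18.8 and 22.8 FPKM in IEC2, 28.8, 29.1 and 31.2 in IEC4, 6.17, 16.6 and 22.8 in IEC12 and 2.36, 1.88 and 1.84 in AOC, where it was lower than in IEC12 by -2.26 (SE 0.33, adjusted p 0.000106). APH1A RNA was thus above APH1B RNA in all libraries of IEC2 and IEC4 and in replicates B and C of IEC12, and below it in IEC12 replicate A and in all AOC libraries.

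MAML2, a Mastermind co-activator, was at 12.3, 9.91 and 11.03 FPKM in IEC2, 5.67, 7.43 and 5.04 in IEC4, 11.8, 9.14 and 7.17 in IEC12 and 2.88, 3.05 and 3.84 in AOC, and fell from IEC2 to IEC4 by -0.79 (SE 0.21, adjusted p 0.0146), though not without IEC2 A (adjusted p 0.0522). RBPJ, named here after its values were seen because every receptor acts through it, was at 7.59 to 9.05 FPKM in AOC and 10.3 to 20.1 in the IEC libraries. In the fit of all 9 IEC libraries on the deposited FPKM values, no step of RBPJ between IEC stages passed (adjusted p 0.0576 to 0.474). HDAC2, a histone deacetylase of co-repressor complexes, was at 102.2 to 108.5 FPKM in AOC and 289.4 to 375.0 in IEC2, and was lower in AOC by -1.56 (SE 0.16, adjusted p 5.01e-06). EP300, an acetyltransferase that acts with Mastermind, fell from IEC2 to IEC12 by -0.75 (SE 0.23, adjusted p 0.0243), a call lost without IEC12 A, IEC12 B, IEC2 B or IEC2 C (adjusted p 0.0641 to 0.0915).

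Genes of trafficking and ubiquitination act on the ligands and receptors. MIB1, the ubiquitin ligase that makes ligands active in the sending cell, was at 29.4, 33.0 and 30.6 FPKM in IEC2, 30.3, 27.1 and 24.3 in IEC4, 49.7, 42.4 and 36.2 in IEC12 and 10.8, 11.8 and 12.5 in AOC. It rose from IEC4 to IEC12 by 0.63 (SE 0.15, adjusted p 0.00829), the step at which the ligand JAG1 fell, and was lower in AOC than in IEC12 by -1.77 (SE 0.14, adjusted p 5e-07). Its relative MIB2 fell from IEC4 to IEC12 by -1.34 (SE 0.45, adjusted p 0.0357), which was lost with any 1 library of IEC4 or IEC12 A left out (adjusted p 0.0743 to 0.107), with a pseudocount of 0.1 (0.0543) and without the filter (0.081), and so did DTX2, a Deltex ubiquitin ligase, by -1.83 (SE 0.30, adjusted p 0.00116). DTX3L rose from IEC2 to IEC4 by 2.32 (SE 0.32, adjusted p 0.000524). NUMB, an inhibitor of NOTCH, fell between IEC2 and IEC12 by -0.87 (SE 0.16, adjusted p 0.0017). DNER, a non-canonical ligand known from neurons, was at 7.06, 11.4 and 5.97 FPKM in IEC2, 1.98, 3.43 and 2.94 in IEC4, 4.80, 4.10 and 2.66 in IEC12 and at most 0.186 in AOC. It fell from IEC2 to IEC4 by -1.25 (SE 0.27, adjusted p 0.00602).

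**Figure D4:**
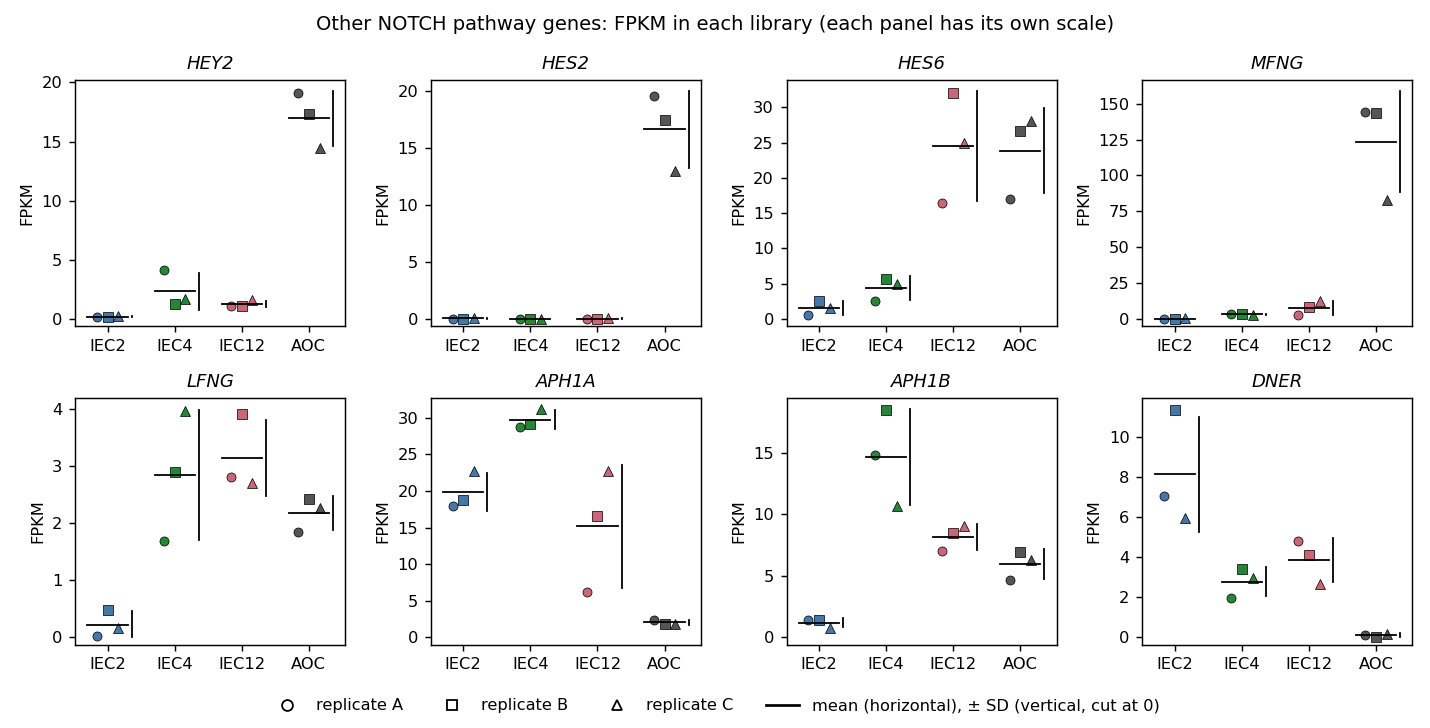
FPKM (vertical axis, linear, a separate scale in each panel) of 8 other NOTCH pathway genes by group (horizontal axis); circles, squares and triangles are replicates A, B and C, horizontal lines are means and vertical lines are ± SD (n = 3). HEY2, HES2 and MFNG are highest in AOC, while APH1A and DNER are lowest there.

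The genes most like each member were sought by Pearson's r of log2(FPKM + 1) over the 12 libraries, which are 4 groups of 3 and so share their group means. NOTCH2 was most like EIF4G3 (r 0.969), GOLGB1 (0.961) and VCAN (0.941), the last a matrix proteoglycan with means of 4.26, 6.48, 6.52 and 3.17 FPKM in IEC2, IEC4, IEC12 and AOC. NOTCH4 was most like AGPAT4 (0.933), MMP11 (0.932) and OS9 (0.912). JAG1 was most like ZNRF1 (0.964), PRKACA (0.948) and DAPP1 (0.947), and HES1 most like METTL9 (0.930), INPP1 (0.929) and CMAS (0.924). HEY1 was most like DNAJC28 (0.972), CTSL (0.964) and IL20RA (0.958). CTSL, a lysosomal protease, had means of 12.4, 74.8, 258 and 8.68 FPKM in IEC2, IEC4, IEC12 and AOC, the same order as HEY1 over a wider range. Among the members themselves the r farthest from 0 was that of JAG1 and HES1 (-0.791). The highest was that of NOTCH2 and HEY1 (0.664), and HES1 and HEY1 stood at -0.215.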

How the data were processed

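The authors processed the reads with Galaxy, and the deposited tables hold 1 FPKM value per gene and library, with no counts. The submitters' processing notes name Bowtie2 2.2.3, TopHat2 2.0.12, Cufflinks 2.2.1 and the build susScr11. Libraries were amplified by Smart-Seq2, which carries no molecular identifiers. Replicates are stated to be biological.

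Read numbers were recovered by finding each library's relative depth (0.668 to 1.23) and each gene's step, and 18887 of 18889 genes above 0 came out whole within 0.002 reads. Genes were named through a table of Ensembl symbols, and coordinates are those of RefSeq for Sscrofa11.1. No sequences of these genes were used here.

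Differences were tested with limma 3.58.1 (R 4.3.3) on log2(FPKM + 1), with the variance tied to mean expression and Benjamini-Hochberg adjustment over every gene that reached 1 FPKM in 3 or more libraries (10542 for the 9 IEC libraries, 11053 for the full set of 12). Fold changes on this scale understate those of low genes. Calls needed an adjusted p under 0.05, two-sided. Comparisons among IEC stages used the fit of 9 libraries and those with AOC the fit of 12. Percentiles, exact permutation tests and ratios were computed with Python 3.11.15 and SciPy 1.17.1.

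The members and gene lists were chosen with earlier results of these data known. All members are named, with the pathway genes of largest change (3 in each direction and comparison, among those called), the marker genes, and the 3 genes most like each member.

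Alternatives were a pseudocount of 0.1, no filter, only the groups compared, the replicate letter as a block, median-of-ratios scaling, equal totals, no variance trend, the limits of the study and each replicate left out. Weights from voom on the recovered reads were added after seeing the data. On simulated data for IEC4 against IEC2 the test recovered 79 of 192 planted log2 fold changes of 1, 193 of 193 of 2 and 187 of 188 of 3. It also called 8, 13 and 11 unchanged genes. Each simulation changed 200 genes and gave every gene the same dispersion, whereas 37.3% of genes were called in the data. The recovered shares therefore do not give the power of the test on the data.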

Additional observations from a re-analysis of the deposited data

How the results depend on the processing

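The numbers of members called were 2 from IEC2 to IEC4, 3 from IEC4 to IEC12, 3 between IEC2 and IEC12, and 1, 4 and 2 in AOC against IEC2, IEC4 and IEC12. Under the limits of the study, on the log2(FPKM + 1) scale, each became 0. With a pseudocount of 0.1, HEY1 in AOC against IEC12 (-3.39, adjusted p 1.13e-05) lay beyond those limits. Without a filter 8 members were tested, and 1 was called between IEC2 and IEC12 and 2 in AOC against IEC2. From IEC2 to IEC4, 1 was then higher and 1 lower, and from IEC4 to IEC12, 2 and 2. In AOC, 2 were then higher and 4 lower than in IEC4, and 1 and 2 than in IEC12. With each replicate left out in turn the counts ranged from 1 to 2 from IEC2 to IEC4, 3 to 4 from IEC4 to IEC12, 1 to 3 between IEC2 and IEC12 and 1 to 2 in AOC against IEC2, and did not move in AOC against IEC4 and IEC12. AOC against IEC2 gave 2 under median-of-ratios scaling and 3 at equal totals. The causes were not tested, save that fewer libraries or more genes entered some fits.

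Most changed calls of single members are given beside the results. The others were gained. At equal totals NOTCH2 (-0.55, adjusted p 0.0314) and NOTCH4 (-0.64, adjusted p 0.0293) passed in AOC against IEC2, where NOTCH4 also passed without AOC B (-0.67, adjusted p 0.037) and HES1 without AOC A (0.68, adjusted p 0.00966). Without IEC12 C, NOTCH2 passed between IEC2 and IEC12 (0.71, adjusted p 0.0407) and NOTCH4 from IEC4 to IEC12 (-0.71, adjusted p 0.0408). Signs turned for NOTCH2 from IEC4 to IEC12 under median-of-ratios scaling (0.12) and, with 1 replicate left out, without IEC12 C (range -0.28 to 0.10). With 1 replicate left out they also turned for NOTCH4 from IEC2 to IEC4 without IEC4 A (range -0.25 to 0.026), for JAG1 over the same step without IEC4 C (range -0.15 to 0.59), and for NOTCH4 in AOC against IEC12 without IEC12 A (range -0.0048 to 0.35). None of these was called in either setting. Among all called genes the share that was higher moved under median-of-ratios scaling from 66.5% to 50.2% for IEC4 against IEC2, from 39.2% to 51.8% for IEC12 against IEC4, and from 32.0% to 49.7% and 38.2% to 50.5% for AOC against IEC4 and IEC12. At equal totals it moved from 39.2% to 25.9% for IEC12 against IEC4, from 55.7% to 36.8% for IEC12 against IEC2 and from 41.9% to 31.5% for AOC against IEC2. With voom on recovered reads NOTCH2 from IEC2 to IEC4 passed (0.74, adjusted p 0.037), and no other call of a member changed.

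Likeness of libraries with the same replicate letter varied between comparisons, and pairing by letter was not tested. The mean correlation of same-letter deviations lay between -0.27 and 0.16 over the comparisons. In AOC against IEC4, 5 of 6 libraries were closest to their own letter (mean r 0.048), and in IEC12 against IEC2, 4 of 6 (0.16). In the other comparisons 0 or 1 of 6 were. With the replicate block the count in AOC against IEC2 was 2, through HES1 (0.46, adjusted p 0.0413), and the block changed no other call of a member. The intervals printed beside members that were not called show the differences that 3 replicates leave possible.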
